A study of Mus musculus with 4 samples.

Results

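The genes described here are those whose chromatin-bound RNA at least doubled after dexamethasone in each of 2 replicate pairs of mouse myotube libraries. A gene was taken when its CPM (its count scaled to a column sum of 1000000) was at least 2 times the vehicle value in pair 1 and in pair 2. It also needed at least 50 counts in both dexamethasone libraries and 5 in both vehicle libraries. Of 23282 features in the table, 11107 had enough counts, and 168 of these passed the ratios (1.51%). From the 168, 19 well-known risers named in the rule and 3 genes with Gm or Rik names were left out, which leaves the 146 members (1.31%). The members were thus chosen by the CPM ratios of the same 4 libraries, so these ratios, their counting intervals and the tests' counts of members are given below as a description and support nothing.

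The cells were myotubes of C2C12, an established mouse line derived from skeletal muscle, which fuses into multinucleated fibres. They had been deprived of steroids and then received vehicle or 1 µM dexamethasone for 2 h, with 2 libraries in each group. All 4 libraries come from this single line, for which the labels name no genetic change, and they do not say whether they were separate cultures. The sequenced RNA came from the chromatin pellet of the nuclei, and it is rich in transcripts that have not yet left their template.

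Dexamethasone is a synthetic ligand of the glucocorticoid receptor. The bound receptor moves to the nucleus, where it attaches to DNA as a dimer at palindromic response elements or joins other DNA-bound factors, and it recruits coactivators or corepressors. Most of its binding sites lie in enhancers far from gene starts. In skeletal muscle, glucocorticoids are best known for promoting protein breakdown, for slowing growth signalling and for shifting fuel use.

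In units of 1000000 counts, column sums ran from 19.7 in vehicle replicate 1 to 88.9 in dexamethasone replicate 2. All 10 myotube markers had at least 10 counts in every library. Their sum was 121387 and 48822 CPM in vehicle and 113763 and 46528 CPM in dexamethasone, so replicate 1 was above replicate 2 in both groups. The part of this replicate difference in the members' values was not tested. Of 6 fibroblast markers, Lum and Thy1 were at 0 in every library. The sum of the list was 662 and 689 CPM in vehicle against 815 and 565 CPM in dexamethasone. Most of it was Col3a1, at 628 and 628 CPM in vehicle and 785 and 531 in dexamethasone, while Col1a1 had ratios of 0.796 and 0.345. The undifferentiated myoblast list summed to 120 and 146 CPM in vehicle and to 96.7 and 121 CPM in dexamethasone, the replicate 1 library below the replicate 2 library in both groups. The 5 adipocyte markers were all under 10 counts, and the macrophage and endothelial lists summed to at most 7.10 and 2.33 CPM. No gene of these lists doubled or halved in both pairs. In such bulk libraries a change in the number of cells of a kind and a change in RNA per cell cannot be told apart. On the minus strand of chromosome 9, 91.7% of 611 genes were at 0 in all libraries, and on that of chromosome 19 it was 51.6% of 366. On the plus strands of chromosomes 9 and 19 it was 19.6% and 15.3%, and on the other chromosomes 20.7%. No member lies on either of these minus strands, where a gene at 0 could not meet the rule, and 1 and 2 members lie on the plus strands.

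The members together took 0.514% and 0.621% of the counts of vehicle replicates 1 and 2, and 1.63% and 1.69% of those of dexamethasone replicates 1 and 2. Their median ratio was 3.31 in pair 1 and 2.79 in pair 2, while the median over all features with enough counts was 0.980 and 0.978. The smaller of a member's 2 ratios had a median of 2.59. It was at least 3 in 50 members, at least 5 in 18 and at least 10 in Prdm1 and Pi15. The opposite rule, a CPM ratio of at most 0.5 in both pairs with the count minimums exchanged, held for 35 of 10467 features (0.334%).

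**Figure D1:**
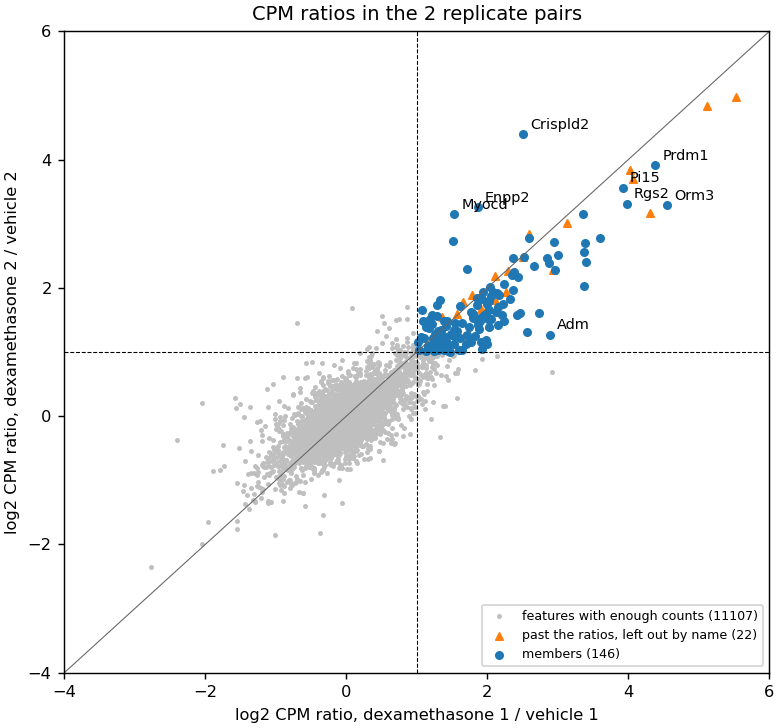
Log2 CPM ratio of dexamethasone over vehicle in pair 1 (horizontal) and pair 2 (vertical) for the 11107 features with enough counts (grey), the 146 members (blue) and the 22 features left out by name (orange triangles). Dashed lines mark a ratio of 2 and the solid line equal ratios, and 117 of the 146 members lie on its pair 1 side.

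Near the threshold the values run on without a gap. Chst11 (2.76 and 2.00 in pairs 1 and 2), Abhd2 (2.36 and 2.02), Mgst3 (2.19 and 2.02), Tmem159 (2.72 and 2.02) and Tprn (2.03 and 2.24) were just inside it. Gnao1 (2.38 and 1.99), Mindy3 (1.99 and 2.00 after rounding), Acoxl (2.05 and 1.98), F7 (2.42 and 1.98) and Ddc (2.23 and 1.96) were just outside. A further 87 features doubled in pair 1 only and 34 in pair 2 only.

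All 146 members had both dexamethasone libraries above both vehicle libraries in CPM, an order that 11.3% of all 13285 tested genes share. In 97 members every dexamethasone library was at least 2 times every vehicle library, so the doubling there does not depend on how libraries are paired. In the other 49 the within-pair ratio passed but at least 1 of the crossed ratios did not. Strip2, a protein of the striatin-interacting complexes, is the closest case: its vehicle libraries had 9.04 and 4.37 CPM and its dexamethasone libraries 36.0 and 9.53.

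The vehicle level is the denominator of the ratio and entered the count minimums, so its values are a description of what the rule took. The members' mean vehicle CPM had a median of 6.98 against 26.4 for all features with enough counts. When those features were ranked by vehicle CPM and split into 4 equal groups, 80 members fell in the lowest group and 31, 17 and 18 in the next ones. The share of features that passed the ratios was 3.17% in the lowest group and 0.756% in the highest. All 146 members are protein-coding in GENCODE M21, and their median gene length was 37.7 kb against 27.3 kb for all features with enough counts.

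Counting error is widest in the weakest members. The intervals below rest on the counts that chose the members and show precision only. Exact 95% binomial intervals for the ratio, which cover counting error only, stayed above 1 in both pairs for all 146 members and at or above 2 in both pairs for 97. The vehicle count was under 20 in at least 1 library in 14 members. For Adm, with 5 and 15 vehicle counts, the interval ran from 2.997 to 23.5 in pair 1 and from 1.38 to 4.48 in pair 2. For Prdm1, with 9 and 34, it ran from 10.8 to 46.0 and from 10.7 to 21.9.

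Promoter sequence was examined because the receptor can bind near gene starts. RefSeq windows of GRCm38.p6, 250 bases before to 50 after a start, were matched by symbol for 105 of the 146 members and for 8889 of the features with enough counts. The full palindromic glucocorticoid response element, of the form seen in the Sgk1 line, on either strand was in 0 member windows and in 1 of the 8889 (0.0112%), that of the left-out riser Sgk1, a kinase gene long known as a glucocorticoid target. A looser form of the element, with fewer fixed bases around the same spacer, includes every full palindrome and was in 2 member windows (1.90%) against 0.371% of the 8889 and 0.537% of all genes in the promoter table. These were Map3k6, a stress-activated kinase of the MAP3K family, and Fyb2, an adaptor related to FYN-binding proteins, both named here because of the match. The bases before the start are shown for both, with a stretch of the Sgk1 window for comparison. The match stands in capitals, and the sequences are from RefSeq GRCm38.p6, plus strand, at chr4:133240568-133240817, chr4:104913311-104913560 and chr10:21993661-21993755.
Map3k6: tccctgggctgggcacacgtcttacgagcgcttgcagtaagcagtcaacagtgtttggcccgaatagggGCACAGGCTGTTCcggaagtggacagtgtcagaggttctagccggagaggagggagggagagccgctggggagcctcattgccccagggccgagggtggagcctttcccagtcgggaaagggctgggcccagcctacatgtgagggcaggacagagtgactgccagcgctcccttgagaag
Fyb2: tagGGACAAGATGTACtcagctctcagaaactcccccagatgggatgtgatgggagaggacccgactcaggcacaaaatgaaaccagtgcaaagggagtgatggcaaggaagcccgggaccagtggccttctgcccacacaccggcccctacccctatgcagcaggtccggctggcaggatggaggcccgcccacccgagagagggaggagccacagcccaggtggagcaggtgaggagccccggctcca
Sgk1: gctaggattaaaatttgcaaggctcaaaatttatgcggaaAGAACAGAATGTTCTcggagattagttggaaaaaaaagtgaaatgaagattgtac

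Map3k6 had 2.18 and 2.75 CPM in vehicle and 9.09 and 10.1 CPM in dexamethasone. Fyb2 had 2.79 and 2.78 CPM in vehicle and 7.40 and 6.23 in dexamethasone. The half-site AGAACA, which the full palindrome contains, was in 13 of 105 member windows (12.4%) and in 14.4% of the 8889. Other motifs were searched on both strands in the same way. TATAAA, the TATA box core, was in 14 member windows (13.3%) against 8.76%, and CACGTG, an E-box, in 10 (9.52%) against 12.1%. GGGCGG, a GC box, was in 69 (65.7%) against 69.7%, and TGACGTCA, the cAMP response element, in 2 (1.90%) against 3.77%. The inverted repeat CTCCNGGAG was in 1 member window (0.952%), that of Bcl2l1, against 2.53%. These are matches of letters and not binding sites, and distant enhancers were not examined.

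Members were assigned to roles after their values were known, from general knowledge of each gene. The gene lists and name patterns used below were also written with earlier results of these data known. Their shares beside those of all features are therefore a description. The roles held 26 members of intracellular signalling, 20 cell surface receptors and adhesion proteins, 19 matrix proteins and matrix-shaping enzymes, 17 secreted ligands and plasma proteins and 16 cytoskeletal and scaffold proteins. The rest were 13 genes of metabolism and redox, 11 regulators of transcription or RNA, 8 of cell cycle, survival and nucleotide supply, 7 channels and lipid flippases, and 9 others. The median of the smaller ratio was highest among matrix genes, at 4.05, and next among regulators of transcription or RNA, at 3.25. It lay between 2.24 and 2.86 in the remaining roles.

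**Figure D2:**
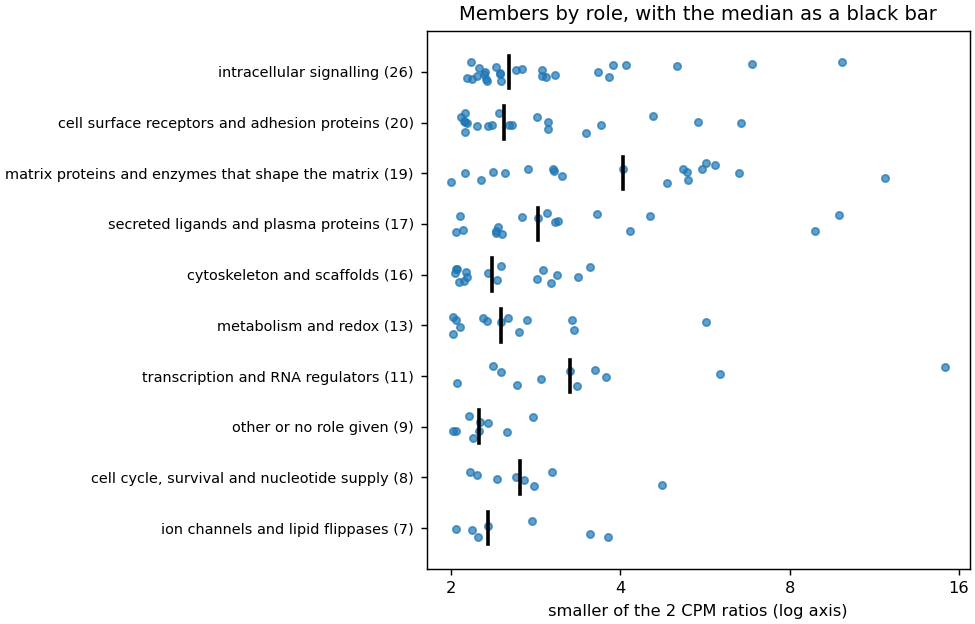
The smaller of the 2 CPM ratios (log axis) of each of the 146 members, by role, with the number of members in brackets and the median as a black bar. The matrix group has the highest median, 4.05, and the single highest member, at 15.1, is a regulator of transcription, Prdm1.

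Among secreted ligands and plasma proteins, an acute-phase gene had some of the largest ratios. Orm3, an orosomucoid of the acute-phase plasma proteins, had 0.254 and 0.766 CPM in vehicle and 5.96 and 7.49 CPM in dexamethasone. Its relatives Orm1 and Orm2 had 0 or 1 count in each vehicle library and at most 36 in any dexamethasone library, and whether reads were shared between these similar genes was not tested. Cp, the copper-carrying ferroxidase ceruloplasmin, was higher at the start, with 38.9 and 52.1 CPM in vehicle, and reached 119 and 171.

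Several growth factor genes were also members. Gas6 encodes the ligand of the TAM receptor tyrosine kinases, among them Mertk, one of the left-out risers. Its vehicle libraries had 10.0 and 15.1 CPM and its dexamethasone libraries 54.2 and 68.1. Of the 9 VEGF and PDGF ligand genes, all with enough counts, 3 were members. Pdgfc, a platelet-derived growth factor chain, had 425 and 421 CPM in vehicle and 1062 and 886 in dexamethasone. Vegfc and Vegfd, ligands of the lymphatic vessel receptors, had ratios of 2.46 and 2.04, and of 2.80 and 2.42. The 6 other genes of that family had pair ratios between 0.541 and 1.30. Vegfa, the main angiogenic ligand, had ratios of 0.922 and 0.769 (edgeR log2 fold change -0.23, adjusted p 1.00). Pdgfa had ratios of 0.583 and 0.541 (edgeR log2 fold change -0.80, adjusted p 0.524). A second edgeR fit that adds the replicate number as a term, here called the blocked fit, gave Pdgfa an adjusted p of 0.00195, which turns the call. Over all 13285 tested genes the blocked fit called 913 higher and 768 lower.

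The other ligands were less abundant. Edn1, which encodes the vasoconstrictor endothelin, had 0.711 and 1.87 CPM in vehicle and 4.21 and 4.63 in dexamethasone. Gdf6 and Bmp8a, of the bone morphogenetic protein family, had ratios of 4.45 and 2.67, and of 4.61 and 2.97. Angpt4, an angiopoietin and ligand of the Tie2 receptor, had ratios of 3.42 and 3.10. Enpp2 encodes autotaxin, which makes lysophosphatidic acid, and had 17 and 6 counts in vehicle and 102 and 145 in dexamethasone. Pla1a, a secreted phosphatidylserine lipase, had ratios of 4.72 and 4.16. Apod, a lipocalin, Adm, the peptide adrenomedullin, C1qtnf1 and Fibin completed the group, with smaller ratios of 2.86, 2.41, 2.40 and 2.08.

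Matrix genes formed the group with the highest ratios. Pi15, a secreted protein of the CAP family, had 5.08 and 4.09 CPM in vehicle and 76.7 and 48.2 in dexamethasone, ratios of 15.1 and 11.8. Postn, which encodes the matricellular protein periostin, had 10.5 and 11.4 CPM in vehicle and 108 and 67.1 in dexamethasone. Ccn2, also called connective tissue growth factor, had 3.10 and 6.81 CPM in vehicle and 32.3 and 44.3 in dexamethasone. In these 3 genes the lowest dexamethasone value was 9.50, 5.88 and 4.74 times the highest vehicle value, a description of values the rule used. Ccn1, the closest relative of Ccn2, had ratios of 1.99 and 1.246.

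Type IV collagen, the network-forming collagen of basement membranes, was among the most abundant RNAs of the set. Col4a1 had 95.9 and 174 CPM in vehicle and 705 and 914 in dexamethasone, a mean of 135 ± 55.3 against 809 ± 148 (SD, n = 2 each). Col4a2 had 117 and 227 CPM in vehicle and 914 and 1099 in dexamethasone, a mean of 172 ± 77.9 against 1006 ± 131 (SD, n = 2 each). Both chains were lower in vehicle replicate 1 than in replicate 2, and their ratios were close, 7.35 and 5.25 for Col4a1 and 7.81 and 4.84 for Col4a2. Both lie head to head on chromosome 8, on opposite strands. Their RefSeq start sites are 21 bases apart, each inside the other gene, so the genes overlap at their starts. The windows share 78 bases, and 222 and 221 of the 300 bases of the windows are G or C. The windows hold no match to the looser response element.

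Other type IV chains and basement membrane genes, picked as relatives after the members were known, had smaller or opposite ratios. Col4a5 had ratios of 0.908 and 1.22 and Col4a6 of 0.941 and 1.00. Lama2, the laminin chain of muscle basement membrane, had ratios of 1.83 and 1.60 (edgeR log2 fold change 0.84, adjusted p 1.00). Lamc1 had ratios of 1.39 and 1.37 (edgeR log2 fold change 0.50, adjusted p 0.377). Nid1, which encodes nidogen, the linker of laminin and type IV collagen networks, had 44.5 and 74.1 CPM in vehicle and 24.1 and 35.0 in dexamethasone (edgeR log2 fold change -0.96, adjusted p 0.479). The blocked edgeR fit gave an adjusted p of 0.000568 for Nid1, 0.00059 for Lama2 and 0.00215 for Lamc1, which turns these calls. Both dexamethasone libraries of Nid1 were below both vehicle libraries. Over all 32 collagen genes with enough counts, 3 doubled, Col4a1, Col4a2 and Col11a1, and 1, Col8a2, halved. None of the 34 tested collagen genes was called by edgeR, whose median log2 fold change over them was -0.07, while the blocked fit called 6 higher and 4 lower.

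**Figure D3:**
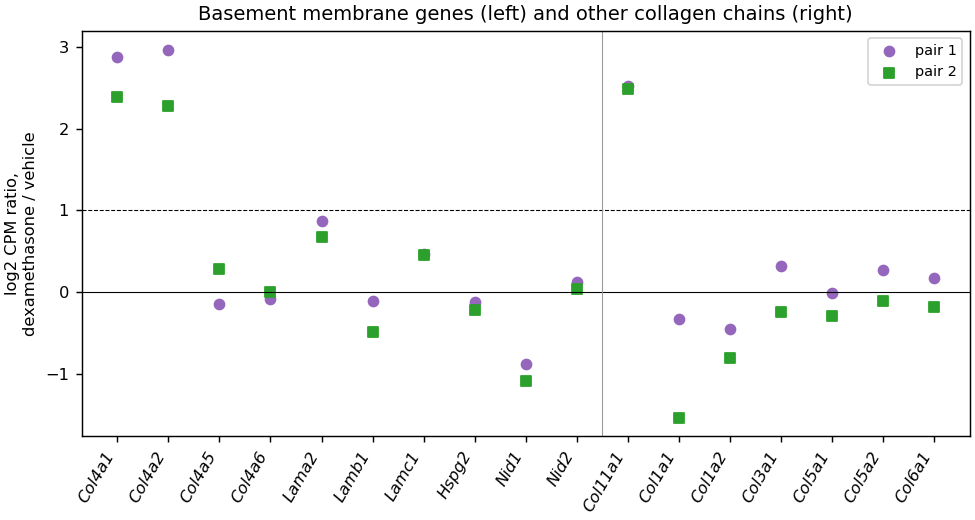
Log2 CPM ratio of dexamethasone over vehicle in pair 1 (circles) and pair 2 (squares) for basement membrane genes and further collagen chains, with a dashed line at a ratio of 2. Col4a1, Col4a2 and Col11a1 are the only genes shown above the line in both pairs, and Nid1 lies at ratios of 0.542 and 0.472.

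Col11a1, a fibrillar collagen chain typical of cartilage, had 13.8 and 12.03 CPM in vehicle and 79.5 and 67.1 in dexamethasone. Among the main fibrillar collagens, Col1a1 had ratios of 0.796 and 0.345 and Col1a2 of 0.731 and 0.573, without passing the test (edgeR adjusted p 0.823 and 0.436). In the blocked edgeR fit the adjusted p was 0.0519 for Col1a1 and 0.00759 for Col1a2. Vcan, the large chondroitin sulfate proteoglycan versican, had the highest mean dexamethasone CPM of all members, with 635 and 448 in vehicle and 1890 and 1118 in dexamethasone. Enzymes that build or trim such sugar chains were members as well. Chst3 and Chst11 sulfate chondroitin and had ratios of 5.54 and 3.04, and of 2.76 and 2.00. Ust, a uronyl sulfotransferase, had ratios of 2.53 and 2.12, and Sulf2, which removes sulfate from heparan sulfate outside the cell, of 2.91 and 2.74.

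The remaining matrix genes span proteolysis and crosslinking. Tll1, a tolloid protease that trims procollagens, had ratios of 5.17 and 5.52. Loxl3, a lysyl oxidase that crosslinks collagen, had 3.45 and 3.05, and Tgm2, a transglutaminase, 2.27 and 2.86. Crispld2, a secreted protein with LCCL domains, had 15 and 13 counts in vehicle and 141 and 689 in dexamethasone. Prg4, the joint lubricant lubricin, Smoc2 and Aspn, a small leucine-rich proteoglycan, had smaller ratios of 4.05, 3.15 and 2.38. The name pattern for matrix genes and their enzymes held 117 genes with enough counts, of which 7 (5.98%) doubled and 3 halved, against 1.51% and 0.334% of all features. Of its 146 tested genes edgeR called none, and their median log2 fold change was 0.001. The blocked fit called 28 of them higher and 20 lower, against 913 higher and 768 lower of all 13285 tested genes.

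**Figure D4:**
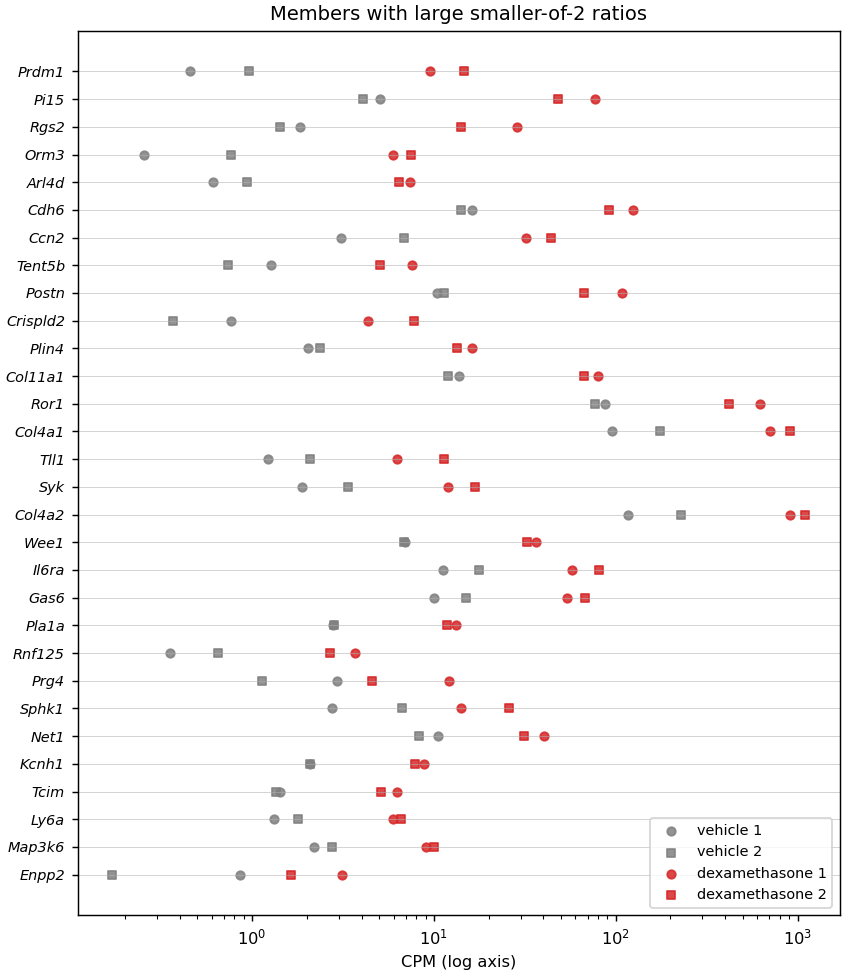
CPM (log axis) of 30 members with large smaller ratios in vehicle (grey) and dexamethasone (red) libraries, replicate 1 as circles and replicate 2 as squares. In every gene shown both red points lie to the right of both grey points, from Prdm1, at 0.457 and 0.965 CPM in vehicle, to Col4a2, at 914 and 1099 CPM in dexamethasone.

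Among cell surface proteins, Cdh6 and Ror1 had the largest ratios. Cdh6, a classical cadherin of cell contacts, had 16.2 and 14.04 CPM in vehicle and 124 and 92.1 in dexamethasone. Ror1, a receptor tyrosine kinase-like protein that binds Wnt5a, had 87.0 and 76.7 CPM in vehicle and 624 and 422 in dexamethasone. Il6ra, the ligand-binding chain of the interleukin-6 receptor, had 11.2 and 17.7 CPM in vehicle and 57.4 and 81.2 in dexamethasone, while Il6st, its shared signalling chain, had ratios of 1.08 and 1.09. In each of these 3, as in all 146 members, both dexamethasone libraries were above both vehicle libraries, and the rule chose them by these values.

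Receptors for other ligands had lower values of the smaller ratio than these 3. Tgfbr3, the TGF-beta coreceptor betaglycan, had ratios of 4.01 and 2.85, and Il18rap, a chain of the interleukin-18 receptor, of 5.37 and 2.98. Boc, a Hedgehog coreceptor that promotes myogenic differentiation, had 22.8 and 37.1 CPM in vehicle and 88.7 and 110 in dexamethasone. Of 69 genes with enough counts in the name pattern of G protein-coupled receptors, 5 doubled (7.25%), against 1.51% of all features. Of the 104 tested edgeR called none, and the blocked fit called 11 higher and 8 lower. The 5 were S1pr3, a receptor of sphingosine 1-phosphate, Adra1b, an adrenergic receptor, Adgrg2, Fzd5, a Wnt receptor, and Gpr20. Their smaller ratios were 2.11, 2.12, 2.33, 2.44 and 2.22. Sphk1, the kinase that makes sphingosine 1-phosphate, was a member too, at 2.74 and 6.67 CPM in vehicle and 14.2 and 25.9 in dexamethasone.

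Itga8 and Itga10, integrin chains that bind matrix proteins, doubled, and the other 11 of the 13 integrin alpha genes with enough counts had ratios from 0.461 to 1.51 in pair 1 and from 0.609 to 1.44 in pair 2. Ptprj and Ptprq, receptor-type phosphatases, had smaller ratios of 2.14 and 2.36. Ly6a, the surface protein Sca-1 of progenitor cells, had 26 and 63 counts in vehicle and 193 and 588 in dexamethasone. Igsf3, Dcbld2, Gpm6b and Cldn34c1 completed the group, with smaller ratios of 3.47, 2.57, 2.54 and 2.08.

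Intracellular signalling was the role with the most members, and 3 of its 26 stand in the list of signalling inhibitors. Rgs2, which speeds GTP hydrolysis by G alpha subunits and so shortens receptor signalling, had 1.83 and 1.42 CPM in vehicle and 28.8 and 14.1 in dexamethasone. It was the only one of 8 RGS genes with enough counts that doubled, and the ratios of the other 7 ended at 1.75 in pair 1 and 1.08 in pair 2. Nfkbia encodes the NF-kappaB inhibitor alpha and is a known glucocorticoid target, with 1.73 and 2.27 CPM in vehicle and 7.03 and 5.93 in dexamethasone. Socs2, a brake on growth hormone signalling, had 11.0 and 12.97 CPM in vehicle and 27.8 and 31.7 in dexamethasone, and the other 5 SOCS family genes with enough counts had ratios of at most 1.03. Of 51 listed signalling inhibitors with enough counts, 6 doubled (11.8%) and 1 halved, against 1.51% and 0.334% of all features. The 6 were these 3, Zfp36l2 and 2 left-out risers. None of the 53 tested was called by edgeR, and their median log2 fold change was 0.01. The blocked fit called 13 higher and 9 lower.

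Small GTPases and their exchange factors made up much of the rest. Arl4d, a small GTPase of the Arf family, had 12 and 33 counts in vehicle and 239 and 570 in dexamethasone. Rhoj, a GTPase of the Cdc42 branch, had 65.4 and 90.6 CPM in vehicle and 243 and 263 in dexamethasone. Net1 and Arhgef26, guanine nucleotide exchange factors, had ratios of 3.84 and 3.82, and of 2.44 and 3.32. The exchange factors Rapgef4, also called Epac2 and activated by cAMP, and Dock10 had smaller ratios of 2.95 and 2.31. Gem, an inhibitory GTPase of calcium channels, had 2.40, and Denn2b, Rab3il1, Rassf8, Agfg2, Plekhf1, Reps2, Bcar3 and Strip2 lay between 2.14 and 2.68. The name pattern of small GTPase regulators held 188 genes with enough counts. Of these, 8 doubled (4.26%) and 0 halved, against 1.51% and 0.334% of all features. Of its 215 tested genes edgeR called none, and the blocked fit called 29 higher and 22 lower.

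Kinases were fewer. Syk, a tyrosine kinase best known from immune cells, had 1.88 and 3.35 CPM in vehicle and 11.9 and 16.9 in dexamethasone. Map3k8, which activates the ERK pathway, had ratios of 2.504 and 2.46. Of 17 MAP3 kinase genes with enough counts, Map3k6 and Map3k8 doubled, and the ratios of the other 15 started at 0.640, and none reached 2 in either pair. Card14, a scaffold of NF-kappaB activation, had ratios of 3.49 and 2.90. Rnf125, a ubiquitin ligase that restrains antiviral signalling, had 7 and 23 counts in vehicle and 120 and 237 in dexamethasone. Arrdc2, an alpha-arrestin, had 1.73 and 4.43 CPM in vehicle and 11.5 and 13.5 in dexamethasone, and none of its 3 relatives with enough counts doubled.

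Prdm1 had the largest smaller ratio of all members. It encodes Blimp-1, a zinc finger repressor that directs terminal differentiation of lymphocytes and other cells. It had 0.457 and 0.965 CPM in vehicle and 9.52 and 14.6 CPM in dexamethasone, ratios of 20.8 and 15.1. Vdr, the vitamin D receptor, had 32.4 and 60.6 CPM in vehicle and 129 and 203 in dexamethasone. Klf15, a regulator of amino acid and lipid catabolism in muscle that is a known receptor target, had 5.18 and 8.77 CPM in vehicle and 17.2 and 23.0 in dexamethasone. Of 103 listed transcription factors with enough counts, 6 doubled (5.83%) and 3 halved, against 1.51% and 0.334% of all features. The 6 were these 3 and 3 left-out risers. None of the 117 tested was called by edgeR, and their median log2 fold change was -0.07. The blocked fit called 21 higher and 22 lower.

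Other regulators act on chromatin or on RNA. Hmga2, a chromatin architectural protein of proliferating and embryonic cells, had 249 and 349 CPM in vehicle and 717 and 831 in dexamethasone. Jade2, a subunit of histone acetyltransferase complexes, had ratios of 3.61 and 3.60. Myocd, the smooth and cardiac muscle coactivator myocardin, had 23 and 17 counts in vehicle and 110 and 381 in dexamethasone. Tent5b, a nucleotidyltransferase that extends poly(A) tails, had 1.27 and 0.738 CPM in vehicle and 7.62 and 5.03 in dexamethasone. Zfp36l2, which promotes decay of AU-rich transcripts, and Adarb1, an RNA-editing adenosine deaminase, had smaller ratios of 2.46 and 2.05. Greb1, an oestrogen-regulated gene, and Tcim had 3.25 and 3.77.

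In metabolism, Plin4 and Glul stood out. Plin4, a coat protein of lipid droplets, had 2.03 and 2.35 CPM in vehicle and 16.3 and 13.4 in dexamethasone. Glul, which encodes glutamine synthetase and is a classic glucocorticoid target in muscle, had 29.1 and 10.9 CPM in vehicle and 95.8 and 53.8 in dexamethasone. Its vehicle libraries differed 2.67-fold, and its lowest dexamethasone value was 1.85 times its highest vehicle value, so a crossed ratio did not reach 2. Of 65 listed genes of lipid and energy metabolism with enough counts, 5 doubled (7.69%) and 2 halved, against 1.51% and 0.334% of all features. The 5 were Plin4, Glul, Apod and 2 left-out risers. The edgeR test called 1 of the 69 tested, which is no member, and the blocked fit 10 higher and 7 lower.

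Redox and purine enzymes made up most of the rest of this group. Xdh, xanthine dehydrogenase of purine breakdown, had ratios of 3.06 and 2.32, and Idh1, the cytosolic isocitrate dehydrogenase that makes NADPH, of 2.52 and 2.46. Glrx, glutaredoxin, Fmo1, a flavin monooxygenase, Mgst3 and Foxred2 had smaller ratios of 2.73, 2.07, 2.02 and 2.28. B4galt1 and Gcnt2, glycosyltransferases of the Golgi, had ratios of 2.52 and 2.55, and of 2.68 and 2.64. Npc2, which carries cholesterol out of lysosomes, Abhd2, a lipase, and Art3 had smaller ratios of 2.04, 2.02 and 3.31.

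Genes of the cell cycle, survival and nucleotide supply were few, and Ccnd3 and Bcl2l1 were the most abundant. Ccnd3, the D cyclin of differentiating muscle cells, had 116 and 216 CPM in vehicle and 418 and 607 in dexamethasone, while the other D cyclins had ratios between 0.569 and 1.03. Bcl2l1, which encodes the survival protein Bcl-xL, had 194 and 240 CPM in vehicle and 634 and 580 in dexamethasone. Its relatives Bcl2 and Mcl1 had ratios of 0.890 and 0.923, and of 0.967 and 0.983. Wee1, the kinase that holds cells before mitosis, had 6.95 and 6.87 CPM in vehicle and 36.3 and 32.6 in dexamethasone. Rrm2 and Prps2, which supply nucleotides, had ratios of 2.69 and 2.79, and of 3.93 and 3.03. Samhd1, a dNTP hydrolase, Cables1 and Rgcc had smaller ratios of 2.16, 2.61 and 2.23.

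Cytoskeletal and scaffold members had the highest median vehicle level of the roles, at 21.2 CPM. Dtna, dystrobrevin alpha of the dystrophin complex, had 618 and 513 CPM in vehicle and 1518 and 1269 in dexamethasone. Tns1, which links integrins to actin, had 380 and 596 CPM in vehicle and 1075 and 1440 in dexamethasone. Tes, a focal adhesion protein, had ratios of 5.01 and 3.54, and Csrp2, a LIM domain protein of smooth muscle, of 3.48 and 3.01. Ehd3, of endosomal recycling, and Jcad, of endothelial junctions, had ratios of 4.67 and 3.37, and of 4.34 and 3.08. Gsn, the actin-severing protein gelsolin, Lims2, Kank1, S100a10, Crip1, Aif1l, Gas7, Myo1h, Ston1 and Tprn had smaller ratios between 2.03 and 2.91. None of the 58 listed sarcomere and fusion genes with enough counts doubled or halved, against 1.51% and 0.334% of all features. Of the 61 tested edgeR called none, and their median log2 fold change was 0.08. The blocked fit called 16 of them higher and 2 lower, against 913 higher and 768 lower of all 13285 tested genes.

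Of the channel genes, 3 belong to the potassium channels. Kcnh1, a voltage-gated channel active in fusing myoblasts, had 2.08 and 2.07 CPM in vehicle and 8.79 and 7.89 in dexamethasone. Kcnab1, an accessory subunit, and Kcnk5, a background channel, had ratios of 3.80 and 3.54, and of 3.71 and 2.79. Scn7a, a sodium channel, had ratios of 2.90 and 2.18, and Gabrr2, a GABA receptor subunit, of 3.04 and 2.04. Atp10a, a lipid flippase, and Plscr2, a scramblase, had ratios of 2.59 and 2.33, and of 2.24 and 2.71. In the name pattern of ion channels and aquaporins 4 of 78 genes with enough counts doubled (5.13%), against 1.51% of all features. Of its 110 tested genes edgeR called none, and the blocked fit called 10 higher and 14 lower. Among 194 solute carriers there were 0 members, and 2 left-out risers doubled (1.03%).

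The 9 other members were Ankrd9, Rubcnl, Calr4, Tm6sf1, Depp1, Ankrd29, Hsf2bp, Cdkn2aipnl and Tmem159. Their smaller ratios ran from 2.02 to 2.80. Calr4, with 13 and 14 vehicle counts, was among the weakest members, at 0.660 and 0.397 CPM in vehicle and 1.54 and 1.07 in dexamethasone.

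In the RefSeq gene order 3 pairs of members were immediate neighbours among the genes of the table. Beside Col4a1 and Col4a2 these were Ehd3 with Xdh on chromosome 17 and Jade2 with Cdkn2aipnl on chromosome 11, in each case on opposite strands. Adm lies next to the left-out riser Ampd3 on chromosome 7 on the same strand, with ratios of 7.38 and 2.41 against 4.33 and 3.52. Cables1 lies next to the left-out gene Gm6277, on the other strand, which had 12 and 29 counts in vehicle and 51 and 214 in dexamethasone. Whether reads of one neighbour were counted for the other was not tested.

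The pairs differed in size for most members. The ratio was larger in pair 1 for 117 of the 146 members (80.1%), compared with 50.9% of all features with enough counts. In 10 members the ratios differed at least 2-fold. Among them, Orm3, Rnf125, Arrdc2, Edn1 and Adm had the larger ratio in pair 1, while Crispld2, Enpp2, Myocd and Apod had it in pair 2. Crispld2 differed most, at 5.69 in pair 1 and 21.02 in pair 2. Of the genes just named, Arrdc2 had 34 and 156 counts in vehicle, and the others at most 23 in replicate 1 and 66 in replicate 2.

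The difference between replicate numbers was also looked at within each group. The rule set no bound on it, but it is tied to the ratios that chose the members. Its dexamethasone value minus its vehicle value equals the log2 ratio of pair 1 minus that of pair 2. These values are thus a description. In vehicle, the log2 CPM of replicate 1 over replicate 2 had a median of -0.33 over the members and -0.19 over all features with enough counts. In dexamethasone the medians were -0.12 and -0.19. With TMM scaling the vehicle medians were -0.14 over the members and -0.0087 over all features with enough counts. The difference in vehicle and that in dexamethasone had a Pearson correlation of 0.717 over the 146 members against 0.872 over all features with enough counts. These are correlations across genes of the same 4 libraries and carry no p. Prg4 was higher in replicate 1 in both groups (log2 1.38 and 1.39). Crispld2 and Myocd were higher in replicate 1 in vehicle (1.05 and 1.28) and lower in it in dexamethasone (-0.84 and -0.34).

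**Figure D5:**
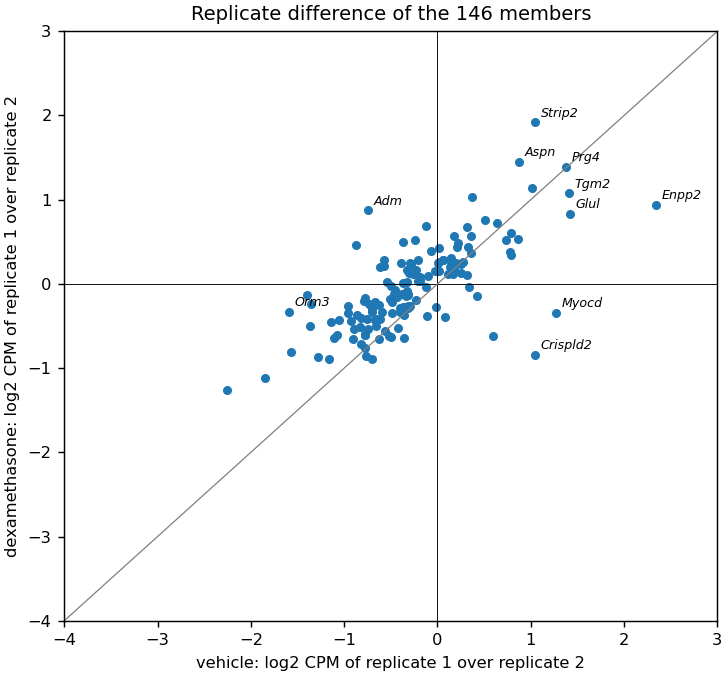
Log2 CPM of replicate 1 over replicate 2 in the vehicle libraries (horizontal) and in the dexamethasone libraries (vertical) for the 146 members, with the line of equal values. Prg4 lies at 1.38 and 1.39, at the upper right, while Crispld2 lies at 1.05 and -0.84.

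In the quasi-likelihood test of edgeR over 13285 genes, with p-values adjusted by Benjamini-Hochberg, 0 of the 146 members passed an adjusted p of 0.05, where 0.0376% of genes were called higher. With p left unadjusted, the bound of 0.05 took in 139 members. Of all 13285 tested genes it took in 543 on the upward side and 225 on the downward side. DESeq2's Wald test called 123 members higher (1.77% of all genes) and edgeR's likelihood ratio test 125 (1.83%). With the replicate number as a block, the edgeR fit called all 146 (6.87% of all genes). With no filter beyond 1 count it called 9 members (0.129%), with at least 10 counts in every sample 0 members (0.0403%) and with library size as the only scaling 0 (0.0301%). The same contrast chose the members, so nothing is read from these counts. The fitted log2 fold change had a median of 1.61 over the members and 0.00 over all tested genes. With 2 libraries a group, an edgeR p measures the spread between these samples only, which may be technical.

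Some lists and a name pattern held few or no members. Of 25 listed genes of the insulin and IGF pathway with enough counts 0 doubled and 1 halved, and of 25 listed muscle atrophy genes 0 doubled and 0 halved. Over all features the shares were 1.51% and 0.334%. At those shares a list of 25 can hold 0, so nothing is read from these counts. Of 19 clock genes 1 doubled, a left-out riser. Of 355 genes with enough counts in the name pattern of zinc finger genes, Zfp36l2 alone doubled (0.282%). The pattern goes by symbol and does not take in Prdm1, described above as a zinc finger repressor. The edgeR test called 0 genes in the insulin, atrophy, clock and zinc finger groups, and the blocked fit called 5 higher and 5 lower in the insulin list, 7 and 3 in the atrophy list, 4 and 4 in the clock list and 12 and 8 among zinc finger genes.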

How the data were processed

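Counts were deposited by the authors as raw read counts per gene in a single table, without normalization. The submitters' processing notes name TopHat2 2.0.13, SAMtools 1.1, HTSeq 0.6.1, DESeq2 1.18.1 and the mouse build mm9. The annotation, the strand setting and whether introns were counted are not given in the sources used here, and the labels' protocols name both a total RNA and an mRNA kit. Groups and replicate numbers came from sample titles. Of 23333 rows, 51 repeated an earlier row and were used once, while column sums kept every row. CPM is the count scaled to a column sum of 1000000.

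The test used edgeR 4.0.16 (R 4.3.3) on genes passing filterByExpr at minimum count 10 and minimum total 15 (TMM, quasi-likelihood, group as the only term, Benjamini-Hochberg over all genes), after a run on simulated data. DESeq2 1.42.0 and limma 3.58.1 served as alternatives. Ratio intervals are exact binomial. No coordinates in mm9 are given; promoter windows, gene order and gene lengths are of GRCm38.

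The members, gene lists, roles and relatives were chosen with earlier results of these data known. Genes named with full values are the 15 members with the largest smaller ratio, the 10 with the highest dexamethasone CPM, members in the written lists, those whose pair ratios differed at least 2-fold, the 5 on each side of the threshold, neighbours, and up to 4 examples of a name pattern. Apart from a few that are not reported here, the other members are named to account for the set, and relatives and motif matches were picked after their values were seen.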

Additional observations from a re-analysis of the deposited data

How the results depend on the processing

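The number of members was 328 at a ratio of 1.5, 50 at a ratio of 3, and 97 with every dexamethasone library at least 2 times every vehicle library, without use of the replicate block. TMM scaling, column sums without repeated rows and other count minimums gave between 123 and 175. Without 1 library, every remaining dexamethasone library had to be at least 2 times every remaining vehicle library. That form gave 97 with all 4 libraries, so 97 and not 146 is its reference. Without 1 library it gave from 134 (without vehicle replicate 1) to 183 (without vehicle replicate 2), of which 113 to 130 were among the 146. Over all genes edgeR's quasi-likelihood test called 5, against 288 by DESeq2's Wald test, 288 by the likelihood ratio test, 23 with no filter beyond 1 count, 0 by limma-voom (at an unadjusted p under 0.05, 540 were higher and 231 lower) and 1681 with the replicate number as a block. The corresponding counts of members called were 0, 123, 125, 9, 0 and 146. Replicate numbers are not stated to mark a shared culture or day, and 2 pairs cannot establish it. The cause of these differences was not tested. The members' direction is fixed by how they were chosen, so its persistence shows no stability. Their median log2 fold change lay between 1.51 and 1.66 in every fit, those without 1 library included, and no scaling moved the median of all genes by more than 0.04. With windows of 150 bases before and 50 after the start, the looser response element was in 0 member windows (2 in the longer window) and AGAACA in 7 (13 in the longer one). Depth limits the 14 members with under 20 counts in a vehicle library most.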

Other observations

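Another 7 features passed both ratios with at least 50 counts in each dexamethasone library but had under 5 counts in a vehicle library, so they are no members. Ctla2a, which encodes a cysteine protease inhibitor, had 2 and 3 counts in vehicle and 210 and 283 in dexamethasone. Omd, a small leucine-rich proteoglycan like the member Aspn, had 10 and 4 counts in vehicle and 262 and 182 in dexamethasone. Ace, the angiotensin-converting enzyme, had 2 and 6 counts in vehicle and 64 and 162 in dexamethasone. Il1rl1, the interleukin-33 receptor, had 4 and 13 counts in vehicle and 61 and 137 in dexamethasone. Tcf23, a basic helix-loop-helix factor, had 2 and 18 against 56 and 192, and Serpina3h, a serpin, 4 and 2 against 63 and 88. The last, E030003E18Rik, had 1 and 3 against 96 and 679. These genes were named after their values were seen, and with so few vehicle counts no ratio is given.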
